A study of Mus musculus with 2 samples.

Results

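The genes described here are 37 mouse genes of the p53 response: Trp53, which encodes p53, its direct regulators, and its known targets in growth arrest, cell death, senescence and DNA repair. They were taken from a list of names out of 19861 gene symbols that could be attached to the data, and all 37 were found. The list names no threshold on values, but it was drawn up with earlier results of these data known. RNA was sequenced from bone marrow mesenchymal stem/progenitor cells, stromal cells that can form fat and bone-forming cells, isolated from 3-month-old CD-1 mice and grown in DMEM with 10% fetal bovine serum. There were 2 libraries, 1 from PPARg-deficient cells (genotype label PPAR KO) and 1 from PPARg-floxed cells (genotype label PPAR-flox). PPARg is the nuclear receptor that drives fat cell formation. The labels do not say which Cre driver removed the gene, whether animals were pooled or how long the cells were cultured. With 1 library per genotype, no difference below has a replicate check, no test could be made, and every call is by size alone.

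p53 is a transcription factor that is kept low by the ubiquitin ligase MDM2 and its partner MDM4. When DNA damage or other stress frees it from them, it binds paired half-sites in DNA and switches on genes that stop the cell cycle, trigger apoptosis, repair DNA, and restrain p53 itself, MDM2 among them. In cultured stromal cells the same pathway, with the CDKN2A proteins, is known for its part in senescence.

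Levels are given in FPKM, fragments mapped to a transcript scaled to its length in kilobases and to the fragments of the whole library, summed over the transcripts of a gene. Pparg itself was at 1.39 FPKM in the deficient and 6.86 FPKM in the floxed library. Summed read coverage was 1728 megabases in the deficient and 1383 megabases in the floxed library. The files give no read counts, so how many fragments a value rests on is not known. Over the 10763 genes and loci kept (at least 1 FPKM in at least 1 library), the median gene was 0.86 higher in the deficient library on the log2 scale of FPKM plus 1. Log2 differences below are therefore deficient minus floxed relative to that median gene, unless they are called as deposited, and a gene is called higher or lower at 2-fold. A single value in parentheses after the FPKM of a gene is this relative log2 difference. Short transcripts, under 300 nt, took 81.7% of all FPKM in deficient cells and 61.6% in floxed cells. Stromal markers summed to 700.4 FPKM in the deficient and 345 FPKM in the floxed library, most of the difference in Cxcl12 (318 and 60.4 FPKM). Pdgfrb was at 74.0 and 21.8 FPKM, Vcam1 at 60.2 and 59.9 FPKM and Col1a1 at 191 and 173 FPKM in the deficient and floxed library. Nt5e was lower relative to the median gene, at 1.01 and 1.86 FPKM, and Thy1, Eng and Lepr stayed under 1 FPKM in both. All 7 leukocyte and macrophage markers together reached 34.3 FPKM in the deficient and 6.34 FPKM in the floxed library, most of the difference in Lyz2 (19.5 and 0.258 FPKM), while the defining genes Ptprc, Adgre1 and Itgam were listed at 0 in both. Summed markers of lymphocytes, red cells, endothelium and megakaryocytes stayed under 1 FPKM in both libraries. The part of these differences in the p53 results was not tested.

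Of the 37 members, 11 were at least 2-fold higher in the deficient library relative to the median gene and 0 were lower. Among all kept genes and loci, 10.3% were higher and 11.8% lower by that rule. The 11 were Bax, Plk2, Cdkn1a, Aen, Perp, Ccng1, Fas, Btg2, Eda2r, Mdm2 and Bcl2l1. As deposited, 18 members were at least 2-fold higher, against 41.9% of all kept genes and loci, and 0 were lower, against 4.68%. The 7 that were added were Trp53, Mdm4, Mcl1, Ei24, Dram1, Tnfrsf10b and Polk. Of the 37, 35 had more FPKM in the deficient library, as did 79.0% of the 16398 genes and loci with any FPKM and a transcript of at least 300 nt, and Gadd45a and Cdkn2a had less.

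The filter on low values kept 29 members. Of these, 7 reached 1 FPKM through the deficient library alone, and Aen and Perp are the called members among them. The filter fixes the direction of all 7 as deposited, so none of them could be called lower. It does not fix their sign relative to the median gene, which Plk3, Bcl2 and Rrm2b lay below. Of the 22 members with at least 1 FPKM in the floxed library, 9 were higher and 0 lower, beside 10.2% and 15.3% of the 8284 genes and loci at that level. The median of the kept members was 0.51 above the median gene and 1.37 as deposited, with 11 of the 29 below the median gene. Over all 37 without a filter the median as deposited was 0.77, where the same 16398 genes and loci had 0.48. By role, the genes called higher were 4 of 7 growth arrest genes, 2 of 4 receptors, 2 of 7 BCL2 family genes, 2 of 7 other death effectors, 1 of 5 regulators of p53, 0 of 2 sestrins and 0 of 5 repair genes. In groups this small, 0 or 1 called gene is near the share among all genes, and differences between roles were not tested.

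**Figure D1:**
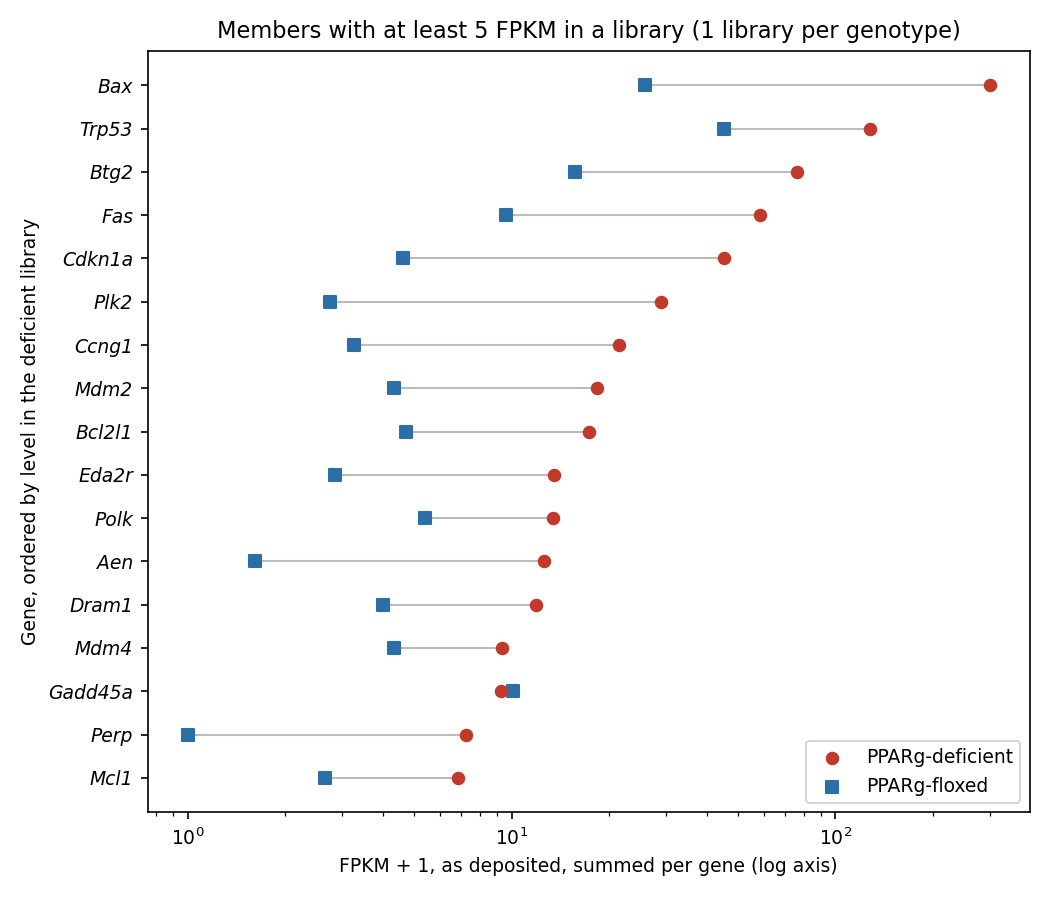
FPKM plus 1 (log axis) of the 17 members with at least 5 FPKM in a library, in the PPARg-deficient (red circles) and PPARg-floxed (blue squares) library, 1 library each. Gadd45a (8.27 and 9.08 FPKM) is the only gene whose red point lies left of its blue one, and Bax (298 and 24.9 FPKM) is the highest in the deficient library.

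p53 binds a pair of half-sites, and promoter sequences were searched for that consensus. Most members are on the list as known p53 targets, so a larger share of matches among them follows from how they were chosen and is no finding. RefSeq promoter windows (build GRCm38.p6, 250 bases before to 50 after a start site) were available for 29 of the 37 members. The p53 consensus response element was taken as 2 half-sites of 10 bases, 0 to 13 bases apart. It reads the same on both strands, and at most 1 mismatch in 20 positions was allowed. No other motif was searched. Such a pair was in a window of 4 of the 29 members (13.8%) and of 1.24% of all 27025 genes in the table. An exact single half-site was in 11 of the 29 members (37.9%) and in 9.55% of all genes. The 4 windows are shown 5′ to 3′ on the gene's strand, with the half-sites in capitals, because they put the sequence beside 3 of the called genes and 1 that was not called. They lie at chr17:29090729-29091028, plus strand (Cdkn1a), chr7:45466849-45467148, minus strand (Bax), chr11:40755237-40755536, minus strand (Ccng1) and chr13:96519138-96519437, minus strand (Polk).
Cdkn1a: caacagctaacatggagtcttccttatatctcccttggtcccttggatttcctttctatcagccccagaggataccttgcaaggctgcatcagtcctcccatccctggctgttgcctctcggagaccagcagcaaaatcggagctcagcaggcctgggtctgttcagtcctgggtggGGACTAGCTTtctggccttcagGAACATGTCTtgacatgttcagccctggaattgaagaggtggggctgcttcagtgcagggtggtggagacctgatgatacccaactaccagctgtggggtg
Bax: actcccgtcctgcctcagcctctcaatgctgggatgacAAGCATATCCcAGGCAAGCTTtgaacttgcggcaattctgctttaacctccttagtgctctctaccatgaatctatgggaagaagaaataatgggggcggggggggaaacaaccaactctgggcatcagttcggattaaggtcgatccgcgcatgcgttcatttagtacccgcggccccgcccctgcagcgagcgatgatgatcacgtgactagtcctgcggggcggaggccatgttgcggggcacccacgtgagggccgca
Ccng1: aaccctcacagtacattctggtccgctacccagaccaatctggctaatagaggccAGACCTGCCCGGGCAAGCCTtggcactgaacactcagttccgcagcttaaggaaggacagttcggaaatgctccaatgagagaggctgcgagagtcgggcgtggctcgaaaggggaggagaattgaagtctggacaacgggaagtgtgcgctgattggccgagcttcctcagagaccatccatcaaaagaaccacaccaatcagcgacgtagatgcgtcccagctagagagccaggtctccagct
Polk: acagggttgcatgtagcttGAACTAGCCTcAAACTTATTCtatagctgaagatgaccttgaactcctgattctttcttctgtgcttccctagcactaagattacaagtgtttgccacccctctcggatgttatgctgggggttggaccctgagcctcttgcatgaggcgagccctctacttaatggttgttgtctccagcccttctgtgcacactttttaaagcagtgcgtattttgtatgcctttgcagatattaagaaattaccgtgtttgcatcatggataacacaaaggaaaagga
Capitals mark 1 pair per window, the one with the fewest mismatches. The marked Cdkn1a pair had no mismatch, with a spacer of 12 bases, and lay 73 to 42 bases before the upstream start site of the gene. The 10 bases directly after its second half-site also form a pair with that half-site, without a spacer and with 1 mismatch. Only 24 of all 32851 windows (0.0731%) held a pair without mismatch. In Bax the pair lay 212 to 192 bases before the start site, in Ccng1 195 to 176 and in Polk 231 to 211, each with 1 mismatch. These are matches of letters and say nothing on whether p53 was bound in these cells. Mdm2, Fas, Plk2, Eda2r, Btg2, Bcl2l1 and Aen, all higher, had no pair at this stringency in their windows, which leave out most of each gene and distal elements.

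Among the regulators of p53, Mdm2, which encodes the ubiquitin ligase that marks p53 for degradation and is itself a p53 target, was at 17.4 FPKM in the deficient and 3.34 FPKM in the floxed library, a relative log2 difference of 1.23. It lay on chromosome 10 from 117125944 to 117147772 (mm9). Its 12-exon transcript was at 13.7 FPKM (deposited bounds 12.1 to 15.3) in the deficient and 2.62 FPKM (1.87 to 3.37) in the floxed library. That transcript held 78.7% of Mdm2 FPKM in deficient cells and 78.4% in floxed cells, so the split between transcripts differed little while the level was 5.22 times as high in FPKM. Mdm4, whose protein binds and inhibits p53, was at 8.33 and 3.34 FPKM in the deficient and floxed library (0.25). Mdm2 and Mdm4 thus stood at a ratio of 2.09 in deficient cells and 0.999 in floxed cells. The 7 Mdm4 transcripts share most exons, and their estimates moved apart: the sixth was at 3.59 FPKM (3.01 to 4.17) in the deficient library with an upper bound of 0.0313 in the floxed one, and the second had an upper bound of 0.0308 in the deficient library against 1.35 FPKM (0.983 to 1.72) in the floxed library. Ppm1d, the WIP1 phosphatase that switches p53 signalling off, stayed at 0.556 and 0.0820 FPKM, under the filter.

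Trp53 itself was abundant in both libraries, at 127 FPKM in the deficient and 44.3 FPKM in the floxed library. This was 2.86 times as high as deposited but within 2-fold of the median gene (0.64), and Trp53 sat at percentile 91.4 of kept genes and loci in deficient cells and 88.8 in floxed cells. Trp53 passed the 2-fold limit without a filter on low values (1.02), by its most abundant transcript alone (1.42) and as TPM without centring (1.40). Under the other centred or scaled settings at that limit it stayed inside, from 0.38 to 0.99. Its transcripts on chromosome 11 from 69393861 to 69405375 (mm9) did not move together. The transcript that starts at the upstream site was at 98.8 FPKM (93.1 to 104) in the deficient and 19.5 FPKM (16.6 to 22.4) in the floxed library. A form with the same start and a last exon 96 nt longer, the layout of the alternatively spliced p53 known in mouse, was at 22.6 FPKM (19.4 to 25.7) and 4.40 FPKM (2.95 to 5.85). The third transcript starts 701 nt downstream with its own first exon of 96 nt, and it went the other way, at 5.39 FPKM (3.66 to 7.11) in the deficient and 20.4 FPKM (17.4 to 23.4) in the floxed library. It made up 4.25% of Trp53 FPKM in deficient cells and 46.1% in floxed cells, and its relative log2 difference was -2.60, against 1.43 and 1.27 for the forms from the upstream start. The bounds of all 3 transcripts lay apart between the libraries, but they describe the estimate within 1 library, and the transcripts differ only in a first or last exon. The mouse genome also holds a processed Trp53 pseudogene and an Mdm4 pseudogene, and how reads were shared with them is not given, so these levels are uncertain.

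Cdkn2a encodes p16Ink4a and p19Arf, the senescence proteins that act through RB and through MDM2. It was at 1.18 FPKM in the deficient and 1.22 FPKM in the floxed library (-0.88). Its FPKM came from the transcript with the upstream start, the layout of Arf, at 1.18 FPKM (0.346 to 2.02) in the deficient and 1.22 FPKM (0.356 to 2.08) in the floxed library. The transcript from the downstream start, the layout of Ink4a, had upper bounds of 0.331 and 0.341 FPKM. The bounds of both transcripts overlapped between the libraries. The relative difference of Cdkn2a passed the 2-fold limit, as lower, with a pseudocount of 0.1 FPKM (-1.18).

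**Figure D2:**
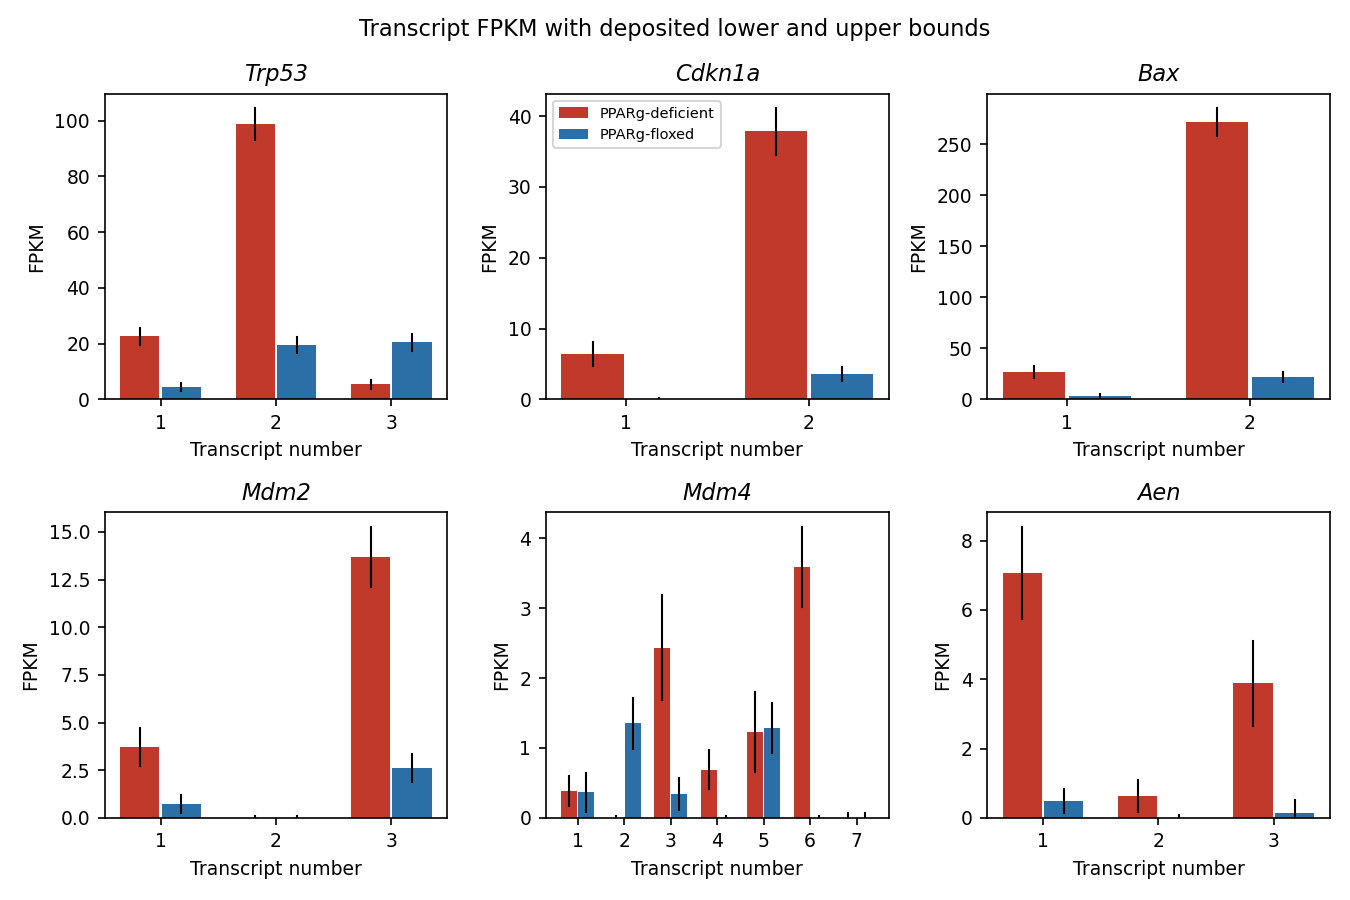
FPKM of each transcript of 6 members (bars, from 0) with the deposited lower and upper bounds (black lines), in the PPARg-deficient (red) and PPARg-floxed (blue) library, numbered as in the files. Of the Trp53 transcripts, number 3 is the one that is lower in the deficient library (5.39 and 20.4 FPKM), and Cdkn1a transcript 1 is at 6.40 FPKM in deficient cells and near 0 in floxed cells.

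The growth arrest genes held the most calls. Cdkn1a encodes p21, the inhibitor of cyclin-dependent kinases through which p53 halts the cell cycle, and was at 44.2 FPKM in the deficient and 3.62 FPKM in the floxed library. The relative log2 difference was 2.44, and the gene moved to percentile 82.2 in the deficient library, against 54.9 in the floxed library. Cdkn1a has 2 start sites on chromosome 17 that lie 2786 nt apart (mm9), and the RefSeq windows of its 2 start sites lie 2790 bases apart in their own build. The upstream one, beside the paired half-sites shown above, gave a transcript of 6.40 FPKM (4.73 to 8.07) in the deficient library, while its upper bound in the floxed library was 0.128 FPKM. The downstream one gave 37.8 FPKM (34.6 to 41.1) in the deficient and 3.62 FPKM (2.65 to 4.59) in the floxed library. The upstream start thus made up 14.5% of Cdkn1a FPKM in deficient cells and the downstream start 85.5%. In floxed cells the estimate of the upstream start was near 0, below the bound just given, so no exact share is stated. The RefSeq window of the downstream start held no exact half-site, and its best pair had 5 mismatches. Whether the marked pair plays a part in either level was not tested.

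Plk2, a polo-like kinase gene induced by p53 and by growth factors, was at 27.9 FPKM (25.8 to 30.1) in the deficient and 1.74 FPKM (1.20 to 2.29) in the floxed library, 16.0 times as high in FPKM and 2.54 on the relative log2 scale. Its relative Plk3, whose product acts in the stress response, was at 1.28 and 0.765 FPKM and had a relative log2 difference of -0.48. Ccng1, which encodes the p53 target cyclin G1, was at 20.4 FPKM (18.8 to 22.0) in the deficient and 2.25 FPKM (1.70 to 2.80) in the floxed library (1.86). Ccng1 carries the paired half-sites without a spacer that are shown above. Btg2, an antiproliferative transcriptional cofactor gene, was at 75.3 FPKM in the deficient and 14.7 FPKM in the floxed library (1.42). Its name rests on 1 intron length and its neighbours on each side, a weaker match than for most members. Gadd45a, a DNA damage inducible growth arrest gene that other stress pathways also control, did not follow. It was at 8.27 FPKM (6.41 to 10.1) in the deficient and 9.08 FPKM (7.08 to 11.1) in the floxed library, bounds that overlap, and relative to the median gene its difference was -0.98, just inside the 2-fold limit. Zmat3, an RNA-binding p53 target, stayed at 0.307 and 0.171 FPKM in the deficient and floxed library, under the filter.

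In the BCL2 family, whose members permeabilize the outer mitochondrial membrane or prevent it, Bax was among the called members with the largest relative difference, along with Plk2, Cdkn1a and Aen, whose order changes with the pseudocount and the scaling. This pore-forming effector gene was at 298 FPKM in the deficient and 24.9 FPKM in the floxed library, a relative log2 difference of 2.68. On chromosome 7 from 52717064 to 52722268 (mm9), both of its transcripts were higher: the major one at 272 FPKM (258 to 285) in the deficient and 22.0 FPKM (17.3 to 26.7) in the floxed library, and the minor one at 26.9 FPKM (21.4 to 32.4) and 2.85 FPKM (0.317 to 5.39). Bax reached percentile 95.9 in the deficient library, against 84.2 in the floxed library, with 355 and 28.6 kilobases of read coverage. Bak1, the other pore-forming gene of the list, stayed under the filter at 0.832 and 0.184 FPKM. The p53-induced BH3-only genes stayed low as well: Pmaip1 (NOXA) was at 2.62 FPKM in the deficient and 1.13 FPKM in the floxed library (-0.09), and Bbc3 (PUMA) was at 0.241 FPKM in the deficient library and listed at 0 in floxed cells.

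Of the survival genes of this family, Bcl2l1, which encodes BCL-XL, was at 16.3 FPKM in the deficient and 3.73 FPKM in the floxed library. At 1.01 its relative log2 difference was barely past the limit, and it fell short of it at the same 2-fold limit under 5 alternative settings, with values of 0.50 to 0.96. Mcl1, a short-lived survival factor gene, was at 5.82 and 1.65 FPKM (0.51), and Bcl2, the founder of the family, at 1.17 and 0.867 FPKM (-0.64). Bax thus stood at 18.3 times the FPKM of Bcl2l1 in deficient cells and 6.67 times in floxed cells. The ratio of Bax to Mcl1 was 51.3 in deficient cells and 15.1 in floxed cells. These ratios are within a library and do not depend on its scaling.

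Among the other death effectors, Aen, which encodes an exonuclease induced by p53, was at 11.6 FPKM in the deficient and 0.611 FPKM in the floxed library (2.11). Its 4-exon major transcript was at 7.07 FPKM (5.75 to 8.40) in the deficient and 0.485 FPKM (0.147 to 0.823) in the floxed library. Perp, a p53 target that encodes a tetraspan membrane protein, was at 6.24 FPKM (4.98 to 7.49) in the deficient library and listed at 0 in the floxed library, where a 0 can be a failed estimate, so no fold is given. Dram1, a lysosomal autophagy gene induced by p53, was at 10.9 and 3.01 FPKM (0.71), and Ei24, a p53-induced gene of the endoplasmic reticulum, at 3.99 and 0.810 FPKM (0.61). Both were within 2-fold of the median gene and more than 2-fold higher as deposited. Of the apoptosome genes among the members, the scaffold gene Apaf1 was at 0.914 and 0.208 FPKM and the protease gene Casp9 at 1.91 and 1.14 FPKM in the deficient and floxed library. Trp53inp1, a nuclear partner of p53 in the stress response, was at 3.25 and 1.98 FPKM (-0.35).

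Of the receptors, Fas, the death receptor of the FAS ligand, was at 57.4 FPKM in the deficient and 8.63 FPKM in the floxed library (1.75). The 9-exon transcript that starts at 34365149 on chromosome 19 (mm9) made up 93.8% of Fas FPKM in deficient cells and 94.1% in floxed cells, with bounds of 49.4 to 58.4 and 6.13 to 10.1 FPKM. Eda2r, which encodes the X-linked ectodysplasin A2 receptor of the TNF receptor family, was at 12.5 and 1.86 FPKM (1.39). Tnfrsf10b, the mouse TRAIL receptor gene, was at 2.95 and 0.927 FPKM (0.18) and reached the filter through the deficient library alone. Epha2, a receptor tyrosine kinase gene that p53 can induce, stayed under the filter at 0.831 and 0.651 FPKM in the deficient and floxed library.

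None of the 2 sestrins and 5 DNA repair genes was called, and 1 and 4 of them were kept, too few to set against a share of 10.3% among all kept genes and loci. Sesn1, a sestrin gene of the response to oxidative stress and nutrients, was at 4.51 FPKM in the deficient and 2.67 FPKM in the floxed library (-0.27), and Sesn2 at 0.966 and 0.154 FPKM. Polk, which encodes a translesion DNA polymerase, was the most abundant of the repair genes at 12.4 and 4.41 FPKM (0.46). The half-sites shown above lie at an internal RefSeq start of this gene. By the distances between starts, no Polk transcript in these data begins there, so the FPKM does not belong to that start. Ddb2 and Xpc, damage recognition genes of nucleotide excision repair, were at 3.29 and 2.49 FPKM (-0.56) and at 0.717 and 0.129 FPKM. Ercc5, a nuclease gene of the same pathway, was at 2.54 and 1.22 FPKM (-0.19), and Rrm2b, the p53-inducible ribonucleotide reductase subunit, at 1.40 and 0.750 FPKM (-0.40). The 4 repair genes that were kept lay within 2-fold of the median gene, as did 77.9% of all kept genes and loci.

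**Figure D3:**
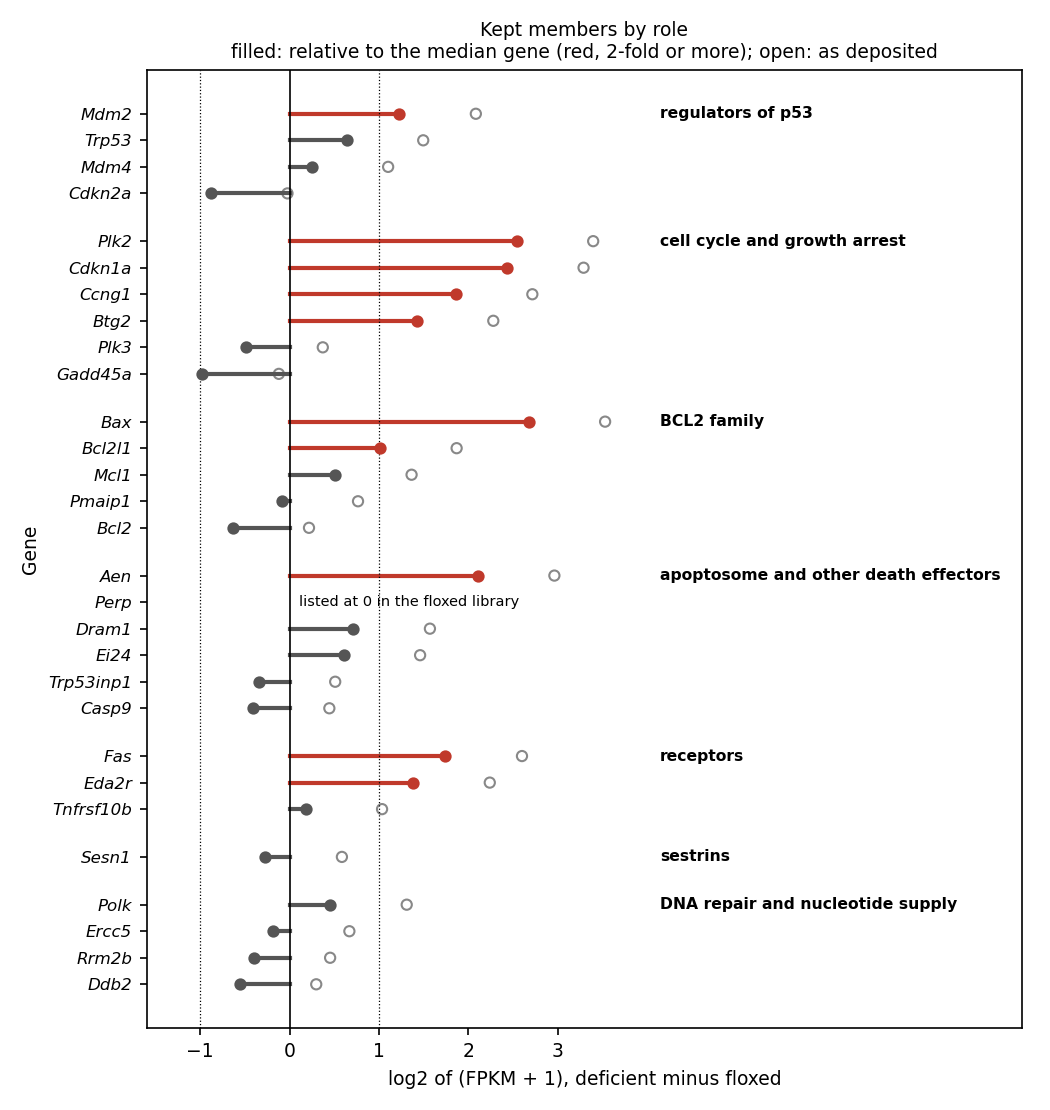
Log2 of FPKM plus 1, deficient minus floxed, for the 29 kept members by role, relative to the median gene (filled, red at 2-fold or more) and as deposited (open circles); dotted lines mark 2-fold. Bax, Plk2, Cdkn1a and Aen exceed 2, the repair genes and Sesn1 lie between -0.56 and 0.46, and Perp has no point because it was listed at 0 in floxed cells.

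Genes of the pathway outside the 37 were read from 5 further lists of 64 genes. Of 15 other p53 targets, 11 were kept, 4 were higher and 0 lower, with a median of 0.82. Of all kept genes and loci, 10.3% were higher and 11.8% lower. Ephx1, which encodes microsomal epoxide hydrolase, was at 442 FPKM in the deficient and 69.8 FPKM in the floxed library (1.79). Psrc1, a spindle protein gene, was at 7.99 and 0.790 FPKM (1.47), and Pdrg1, a gene regulated by p53 and DNA damage, at 177 and 43.1 FPKM (1.15). Rps27l, a p53-induced ribosomal protein gene with close relatives that can share reads, was at 1460.3 and 382 FPKM (1.07). Psrc1 reached the filter through the deficient library alone. These lists, too, were chosen with earlier results of these data known, and they share the 2 libraries with the members, so they are no independent evidence.

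Of 9 other BCL2 family genes, 5 were kept, with 1 higher, 1 lower and a median of 0.07. In a list this small, such counts are near the shares of 10.3% and 11.8% among all kept genes and loci. Bad, a BH3-only gene controlled by survival kinases, was at 35.8 FPKM in the deficient and 6.28 FPKM in the floxed library (1.48), and Bid, cut by caspase 8 downstream of death receptors, was at 144 and 75.1 FPKM (0.07). Bcl2l11, the BIM gene, was the lower one at 0.583 and 1.08 FPKM (-1.25), named after its value was seen, and as deposited it was within 2-fold. Bmf, Bik, Hrk and Bcl2l10 were listed at 0 in both libraries.

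Caspases, cytochrome c and inhibitors of apoptosis were all kept (12 of 12), with 2 higher, 0 lower and a median of -0.08. For 12 genes these counts are near the shares of 10.3% higher and 11.8% lower among all kept genes and loci. Htra2, a mitochondrial protease gene, was at 12.26 FPKM in the deficient and 1.498 FPKM in the floxed library (1.55). Birc5, survivin, which serves cell division as well as survival, was at 187 and 43.5 FPKM (1.22). Casp8, the initiator caspase of death receptors, was at 6.46 and 1.85 FPKM (0.53). Of 9 DNA damage signalling genes, 7 were kept and 0 called in either direction, with a median of 0.17. These 7 are too few to set against the same shares. Chek2, a checkpoint kinase upstream of p53, was at 13.9 and 3.997 FPKM (0.72) and Rad50, a break sensor, at 6.73 and 1.86 FPKM (0.58).

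Of 19 senescence genes, 15 were kept, 2 were higher and 2 lower, and the median was -0.17. These counts are near the shares of 10.3% and 11.8% among all kept genes and loci. Cxcl1, a secreted chemokine, was one of the higher genes, at 50.5 FPKM in the deficient and 13.1 FPKM in the floxed library (1.01). The lower genes were the CDK inhibitor genes Cdkn2c, at 15.2 and 24.4 FPKM (-1.503), and Cdkn1b, at 2.86 and 3.91 FPKM (-1.20, named after its value was seen), both within 2-fold as deposited. Glb1, the gene of the beta-galactosidase used to stain senescent cells, was at 29.4 and 28.6 FPKM (-0.82). Of the CDK inhibitor genes named here, Cdkn1a was the one that was higher, while Cdkn2a, Cdkn2b (-0.42) and Cdkn2d (-0.17) lay within 2-fold of the median gene.

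**Figure D4:**
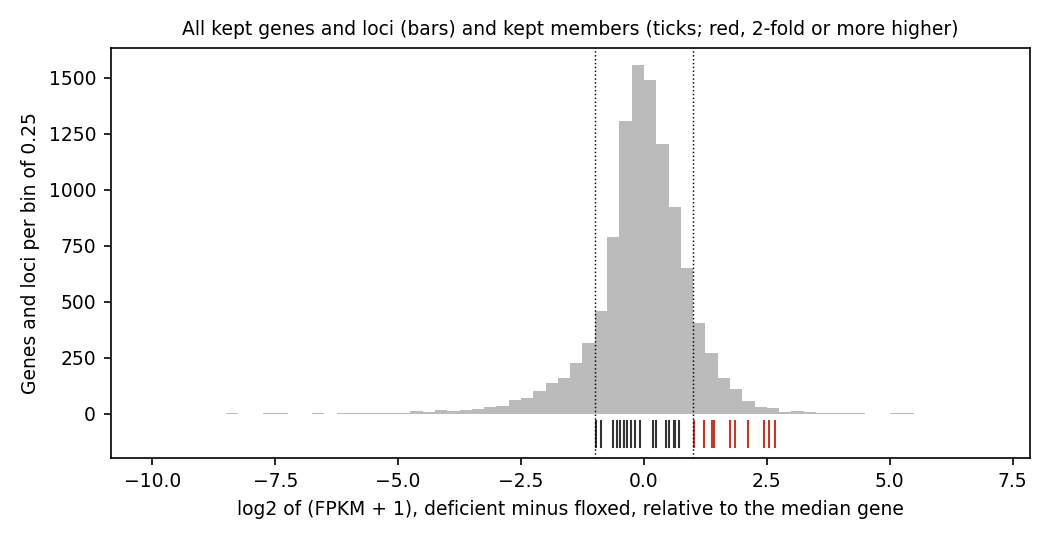
Number of kept genes and loci (grey bars, bins of 0.25) by log2 difference of FPKM plus 1, deficient minus floxed, relative to the median gene, with the kept members as ticks (red at 2-fold or more; Perp not drawn). No member tick lies left of the lower dotted line, the lowest being Gadd45a at -0.98, and the highest is Bax at 2.68.

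Among the 17 members with at least 5 FPKM in a library, 11 were higher and 0 lower, beside 16.7% and 11.0% of the 6213 genes and loci at that level. This level was reached by 17 members in the deficient and by 5 in the floxed library, so the group was picked in large part by the deficient library. Read coverage behind these 17 ranged from 10.9 to 369 kilobases per gene in the deficient library and from 0 to 123 kilobases in the floxed library, and the values of Aen, Perp and Plk2 rest on the least coverage in the floxed library. All 11 called members had major transcripts whose deposited bounds lay apart, as did 98.7% of all genes and loci called higher, so this sets the members apart from no other called gene. By rank within each library, which needs no scaling, 20 of the 29 kept members stood higher in the deficient library and 9 lower, beside 53.5% of all kept genes and loci that stood higher. The 29 include the 7 kept through the deficient library alone, and that filter favours a higher rank there. Of these, Perp, Aen, Ei24 and Tnfrsf10b stood higher and Plk3, Bcl2 and Rrm2b lower. In total RNA from a bulk culture, fewer cells of a type and less RNA per cell cannot be told apart. Of the 37 members, 7 overlap another locus in the files, Gadd45a being the one of them with at least 5 FPKM, and without stated strand handling reads of the overlapping parts cannot be assigned. The same limit holds for Bad and Htra2 of the further lists, which overlap Gpr137 and Loxl3.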

How the data were processed

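RNA of 2 libraries, 1 PPARg-deficient and 1 PPARg-floxed, was read on a HiSeq2000 instrument, per the labels. The deposited files hold FPKM per transcript, with lower and upper bounds and coverage, as Cufflinks writes them. Per the submitters' processing notes, TopHat2 2.0.5, Cufflinks 2.0.2, Cuffdiff 2.0.2 and build mm9 are listed, their role and order unstated. Because FPKM depends on each library's own total, levels were compared after centring. The annotation, filters and strand handling were not given in the sources used here.

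The files carry assembly IDs only. Names were inferred by matching the ordered lengths of introns and internal exons to GENCODE M21 on the same chromosome and strand: whole chains named 17820 loci, runs of 3 lengths 360, single introns with a terminal exon 956, and an intron length with both neighbouring genes 580, the last added after seeing the data and used for Btg2 and Bcl2. On another chromosome 0 of 37034 chains found a gene. Coordinates are those of the files.

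Transcript FPKM was summed per gene. Genes and loci with at least 1 FPKM in 1 library and a transcript of at least 300 nt were kept. The fold is log2 of FPKM plus 1, deficient minus floxed, centred on the median of all kept, which understates low genes. With 1 library per group, no p-value or interval was computed. All 37 members are named, those of at least 5 FPKM in full, and from each further list up to 4 kept genes of at least 5 FPKM with the largest relative difference, apart from a few that are not reported here. Members and lists were chosen with earlier results of these data known. The steps were tested on simulated data. The motif search was chosen after seeing the data. 12 alternatives were run, with Python 3.11.15, numpy 2.4.6, pandas 2.3.3 and matplotlib 3.10.9.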

Additional observations from a re-analysis of the deposited data

How the results depend on the processing

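None of the 11 called members changed sign under the 12 alternatives. The 11 members called higher, beside 10.3% of all kept genes and loci, became 7 with a pseudocount of 5 FPKM (8.50% of all), 18 as deposited without centring (41.9%), 18 with TPM (42.5%) and 4 at a 4-fold limit (1.52%). With the pseudocount of 5 FPKM, Bcl2l1, Eda2r, Mdm2 and Perp lost their call. The other alternatives gave 10 to 14, where 10.2% to 21.9% of all were higher. The 14 came at the 1.5-fold limit, where that share was 21.9%. The count of members called lower, 0, became 2 with a pseudocount of 0.1 FPKM, 1 with a filter of 5 FPKM, 1 with upper-quartile scaling and 3 at a 1.5-fold limit, where 20.4% of all were lower. Gadd45a was among them each time. The median of the kept members, 0.51, was 1.17 with a filter of 5 FPKM, 1.37 as deposited and 1.40 with TPM. In the remaining alternatives it lay between 0.27 and 0.70. Bax, Cdkn1a, Plk2 and Aen kept their call under every alternative, and Ccng1 and Fas under all but the 4-fold limit. The cause of these differences was not tested. No paired analysis was possible because each genotype has 1 library, and for the same reason no replicate could be left out. Fragment counts are unknown, so no counting error can be given, and values near 1 FPKM are the least precise.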
